A study of Homo sapiens with 24 samples.

Results

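The 10 genes described here, ATF4, ATF3, ATF5, DDIT3, DDIT4, TRIB3, CHAC1, ASNS, CEBPB and PPP1R15A, are genes of the ATF4 arm of the integrated stress response. They were chosen by name, with earlier results of these data known, and each was found once among the 14585 rows of the count table. All 10 passed the filter on low counts in both cell lines. The data are 24 RNA sequencing libraries of 2 human cancer cell lines, A549 from a lung carcinoma and Huh7 from a hepatocellular carcinoma. The labels give both as wild type (WT), while the paper describes p53 as wild type in A549 cells and mutant in Huh7 cells. Each line had 4 groups of 3 replicates, which were control cells and cells treated with an ethanol extract of Pulsatilla chinensis, Bupleurum chinense or Polyporus umbellatus. The dried extracts were taken up in DMSO, and the vehicle of the control cells, the dose and the hours of exposure before RNA was taken are not given in the sources used here. The labels do not say whether replicates came from separate cultures, so p-values measure the spread between these libraries, which may be technical.

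The integrated stress response starts when one of 4 kinases (EIF2AK1 to EIF2AK4) phosphorylates the translation factor eIF2, which slows most protein synthesis. The mRNA of the transcription factor ATF4 is then translated more, through short reading frames ahead of its coding sequence, and ATF4 switches on genes for amino acid supply, redox balance and, with its targets DDIT3 (CHOP) and ATF3, cell death. PPP1R15A (GADD34) closes the loop by directing a phosphatase to eIF2, and TRIB3 binds and restrains ATF4. Several of these genes also answer to other inputs, since ATF3 and PPP1R15A are early genes of many stimuli. The counts measure mRNA and not translation or protein.

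Short sequences that ATF4 and related factors are known to bind were looked for in the 250 bases ahead of each start site that RefSeq lists for the 10 genes (19 windows, GRCh38.p14). The C/EBP-ATF motif TGATGNAA was searched on both strands and stood in 3 of the 19 windows, 1 each of ATF3, CHAC1 and ASNS, and in 3.14% of 35116 windows of all genes. The cAMP response motif TGACGTCA stood ahead of PPP1R15A (1.65% of all windows) and the AP-1 motif TGACTCA ahead of ATF5 and DDIT3 (4.20%). A longer motif, the ER stress element, is in 0.0740% of all windows and was found in none of the 19, and ATF4, DDIT4, TRIB3 and CEBPB had no match to any of the 4 motifs. Each of the other 6 genes matched 1 motif at 1 place, so no matches of different motifs overlap. A match is a description of the sequence and not a measured binding site. The stretches around the matches follow, 5′ to 3′ on the strand of the gene with the match in capitals, and CHAC1 carries its motif as the reverse complement.
ASNS: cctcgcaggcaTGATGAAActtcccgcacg
CHAC1: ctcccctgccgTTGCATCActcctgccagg
ATF3: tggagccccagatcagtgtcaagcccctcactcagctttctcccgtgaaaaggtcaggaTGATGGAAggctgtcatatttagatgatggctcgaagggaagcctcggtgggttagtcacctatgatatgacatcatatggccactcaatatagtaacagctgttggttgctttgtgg
PPP1R15A: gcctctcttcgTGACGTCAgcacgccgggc
DDIT3: gcgcgcgcaTGACTCAcccacctcctccgt
ATF5: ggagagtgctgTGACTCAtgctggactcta
The ASNS stretch lies at chr7:97872458-97872487 on the minus strand, with its match 68 to 61 bases ahead of the start site and inside an annotated 5′ exon (UTR) of a longer ASNS transcript. The CHAC1 stretch at chr15:40953251-40953280 on the plus strand has its match 209 to 202 bases ahead of the start, also in an annotated UTR of CHAC1. The ATF3 stretch spans chr1:212565157-212565333 on the plus strand and overlaps no annotated exon. The PPP1R15A stretch at chr19:48872352-48872381 on the plus strand lies in an annotated UTR of PPP1R15A, 58 to 51 bases ahead of the RefSeq start. The DDIT3 match, in chr12:57520735-57520764 on the minus strand, lies outside annotated exons, and the ATF5 match, in chr19:49928707-49928736 on the plus strand, lies in UTRs of ATF5 and of NUP62.

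The libraries held between 6803648 and 24345364 counts on protein-coding genes. Levels are given as CPM (counts scaled to a common library size), with TMM normalization except in the marker sums that follow. The cells went with their labels. The summed level of 8 A549 markers lay between 13854 and 16853 CPM in the A549 libraries and between 2534 and 3393 in the Huh7 libraries. The 8 liver markers summed to 13415 to 23857 CPM in Huh7 and 2.36 to 9.42 in A549 libraries. One library stood apart. Replicate 2 of P. umbellatus in Huh7 cells had a highest correlation with its own group of 0.956, the lowest of the 24 libraries. Within a line, all 3 extracts were set against 1 shared set of 3 control libraries. A gene was called changed at a Benjamini-Hochberg adjusted p below 0.05 in edgeR's two-sided quasi-likelihood test over all genes of the line. Fold changes are log2 values with a standard error (SE). The SE was derived from the fold change and the F statistic of its quasi-likelihood test. Where libraries are said not to overlap, this is a description only, and the share of all genes so separated was not counted.

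The P. chinensis extract raised the same trio of genes, ATF3, DDIT3 and PPP1R15A, in both lines. In A549 cells ATF3 rose 8.02-fold, DDIT3 2.98-fold and PPP1R15A 2.22-fold, and in Huh7 cells they rose 3.53-fold, 2.45-fold and 3.26-fold. ATF4 mRNA was not among the genes that rose, and ASNS, which makes asparagine and is a standard ATF4 target, fell in both lines. Its call in A549 cells was at the edge of the threshold and was lost under 10 of 14 alternative settings. In A549 cells 4 of the 10 genes were higher and 3 lower with P. chinensis, where 15.8% of all genes tested were called higher and 17.1% lower. In Huh7 cells 3 were higher and 3 lower, against 10.5% of all genes in each direction. Leaving out Huh7 P. umbellatus replicate 2, which shares the estimate of the spread, left these Huh7 counts at 3 and 3. The share of all genes did not stay fixed. Of 13875 genes, 2901 were called in the main fit and 1839 to 4845 when single libraries were left out. In bulk libraries a change in the share of responding cells and a change in RNA per cell cannot be told apart.

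**Figure D1:**
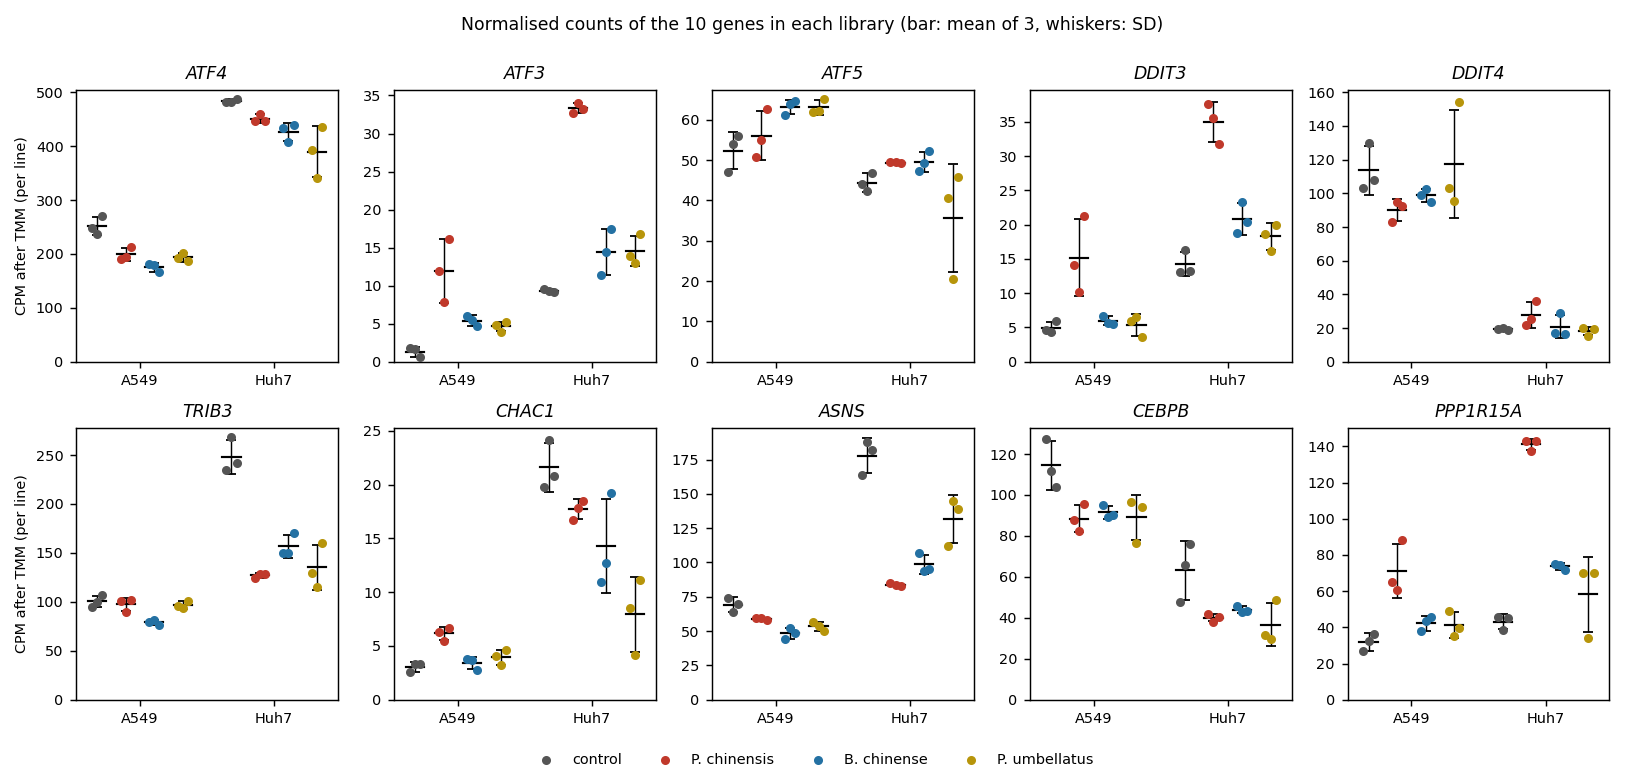
Normalised counts (CPM after TMM, per line, vertical axis from 0) of each of the 10 genes in all 24 libraries, with points for libraries, horizontal bars for the mean of 3 and whiskers for the SD. The 3 P. chinensis libraries lie above the 3 control libraries for ATF3, DDIT3 and PPP1R15A in both lines, and below them for ASNS. Among the 10 genes, 5 lie above and 5 below in Huh7 cells, and 4 and 4 in A549 cells. The share of all genes so separated was not counted, so whether such separation is particular to these genes was not tested.

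ATF3 (ENSG00000162772, chr1:212565334-212620777, plus strand) encodes a stress-inducible factor of the ATF/CREB family. In A549 control cells it stood at 1.77, 1.67 and 0.579 CPM in replicates 1, 2 and 3, which rested on 14, 17 and 6 counts. The P. chinensis libraries gave 11.9, 7.79 and 16.2 CPM, those of B. chinense 6.07, 5.51 and 4.68, and those of P. umbellatus 4.79, 3.96 and 5.21. All 9 treated libraries lay above all 3 control libraries. The log2 fold changes were 3.003 (SE 0.34, adjusted p = 9.6e-06) for P. chinensis, 1.89 (SE 0.35, adjusted p = 0.0009) for B. chinense and 1.67 (SE 0.34, adjusted p = 0.002) for P. umbellatus. The few counts in the control libraries limit the precision of these folds. Huh7 control cells held more ATF3, at 9.58, 9.31 and 9.13 CPM. P. chinensis libraries reached 32.7, 34.0 and 33.3 CPM, B. chinense libraries 11.5, 14.4 and 17.5, and P. umbellatus libraries 13.9, 12.96 and 16.8. Again no treated library overlapped the controls, but the test called only P. chinensis (1.82, SE 0.15, adjusted p = 5.2e-06) and P. umbellatus (0.64, SE 0.15, adjusted p = 0.0074). For B. chinense the value was 0.63 (SE 0.15, adjusted p = 0.065), and without Huh7 P. umbellatus replicate 2 its adjusted p was 0.018.

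DDIT3 (ENSG00000175197, chr12:57516588-57521737, minus strand) encodes CHOP, which drives the death branch of the response. A549 control libraries held 4.69, 4.33 and 5.88 CPM, and P. chinensis libraries 14.2, 10.2 and 21.2. B. chinense gave 6.73, 5.62 and 5.55 CPM and P. umbellatus 5.92, 6.54 and 3.60, both overlapping the controls. The rise with P. chinensis was 1.57 (SE 0.27, adjusted p = 0.00043), and the other extracts gave 0.26 (adjusted p = 0.56) and 0.12 (adjusted p = 0.80). In Huh7 cells the control libraries stood at 13.1, 16.3 and 13.3 CPM, P. chinensis at 37.6, 35.5 and 31.8, B. chinense at 18.8, 23.3 and 20.4, and P. umbellatus at 18.7, 16.1 and 20.01. P. chinensis libraries lay clear of every other Huh7 library. The log2 fold changes were 1.29 (SE 0.13, adjusted p = 2.9e-05), 0.55 (SE 0.13, adjusted p = 0.067) and 0.37 (SE 0.13, adjusted p = 0.049) in the same order. The call for P. umbellatus rested close to the threshold and was lost under 11 of 14 alternative settings.

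PPP1R15A (ENSG00000087074, chr19:48872212-48876059, plus strand) encodes GADD34, the stress-induced subunit of the eIF2 phosphatase. It stood at 26.7, 32.7 and 36.4 CPM in A549 control libraries and at 65.1, 60.6 and 88.3 with P. chinensis. B. chinense gave 37.7, 43.5 and 45.7 CPM and P. umbellatus 49.3, 35.3 and 39.4, the latter overlapping the controls. The change was 1.15 (SE 0.16, adjusted p = 6.1e-05) with P. chinensis, 0.39 (adjusted p = 0.089) with B. chinense and 0.37 (adjusted p = 0.10) with P. umbellatus. Huh7 control libraries held 45.9, 38.6 and 45.0 CPM, P. chinensis 143, 138 and 143, B. chinense 75.0, 74.3 and 71.7, and P. umbellatus 70.1, 34.3 and 70.2. The P. chinensis libraries were the highest and were close together, while replicate 2 of P. umbellatus fell below all controls and its 2 partners above them. P. chinensis changed the gene by 1.71 (SE 0.19, adjusted p = 7.3e-05). B. chinense gave 0.77 (adjusted p = 0.08) and P. umbellatus 0.44 (adjusted p = 0.094). Without Huh7 P. umbellatus replicate 2 both passed, at 0.77 (adjusted p = 5.2e-05) and 0.70 (adjusted p = 5.7e-05).

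**Figure D2:**
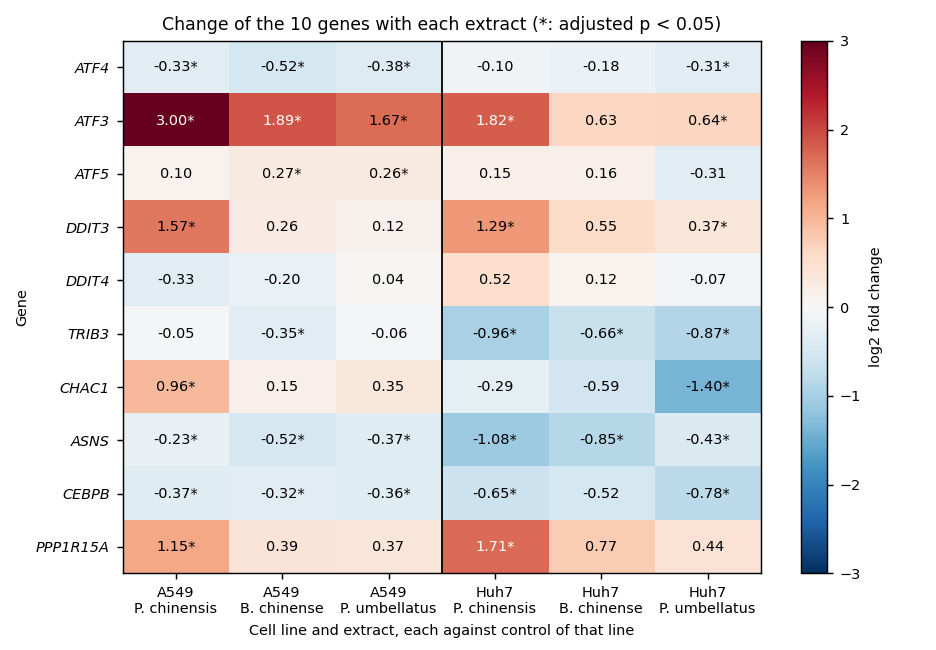
Log2 fold change of each of the 10 genes (rows) with each extract against control of the same line (columns), with the value in each cell, red for higher, blue for lower and an asterisk where the adjusted p was below 0.05. ATF3 was above 0 in all 6 columns and ASNS below 0 in all 6.

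ATF4 itself (ENSG00000128272, chr22:39519695-39522683, plus strand) was lower in A549 cells with every extract. Control libraries held 248, 237 and 271 CPM, P. chinensis 191, 194 and 213, B. chinense 181, 179 and 166, and P. umbellatus 193, 202 and 186. No treated library reached the controls. The falls were -0.33 (SE 0.06, adjusted p = 0.00062), -0.52 (SE 0.06, adjusted p = 2.0e-05) and -0.38 (SE 0.06, adjusted p = 0.00029), so the mRNA fell by between 1.26-fold and 1.43-fold. In Huh7 cells the controls stood at 481, 482 and 488 CPM, P. chinensis at 446, 460 and 446, B. chinense at 434, 407 and 439, and P. umbellatus at 393, 341 and 435. All 9 treated libraries lay below the controls, but only P. umbellatus was called (-0.31, SE 0.08, adjusted p = 0.0098), while P. chinensis gave -0.10 (adjusted p = 0.40) and B. chinense -0.18 (adjusted p = 0.36). The B. chinense value passed at adjusted p = 0.03 without Huh7 P. umbellatus replicate 2.

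ATF5 and CEBPB are further bZIP factors among the 10. ATF5 (ENSG00000169136, chr19:49928702-49933935, plus strand) is a factor whose translation also rises when eIF2 is phosphorylated. It stood at 47.1, 54.0 and 55.9 CPM in A549 controls and rose to 61.2, 63.8 and 64.6 with B. chinense (0.27, adjusted p = 0.031) and to 61.9, 62.1 and 65.1 with P. umbellatus (0.26, adjusted p = 0.031). The call for B. chinense was lost without any 1 of A549 control replicates 1 and 2 and B. chinense replicates 2 and 3 (adjusted p = 0.051 to 0.12). That for P. umbellatus was lost without A549 control replicate 1 or 2 or any 1 of its own 3 libraries (adjusted p = 0.052 to 0.12). P. chinensis gave 50.7, 54.9 and 62.5 CPM, which overlapped the controls (0.10, adjusted p = 0.42). In Huh7 cells ATF5 stood at 44.1, 42.2 and 46.9 CPM in controls, 49.5, 49.4 and 49.2 in P. chinensis, 47.3, 49.2 and 52.2 in B. chinense, and 40.5, 20.5 and 45.8 in P. umbellatus libraries, and no change was called (adjusted p = 0.25 or above). CEBPB (ENSG00000172216, chr20:50190830-50192668, plus strand) encodes C/EBPβ, a dimer partner of ATF4. It fell in A549 cells from 128, 112 and 104 CPM to 87.6, 82.3 and 95.6 in P. chinensis libraries (-0.37, adjusted p = 0.0075), 94.9, 89.2 and 90.2 in B. chinense libraries (-0.32, adjusted p = 0.021) and 96.8, 76.4 and 94.0 in P. umbellatus libraries (-0.36, adjusted p = 0.010). The treated libraries did not overlap the controls. Without A549 control replicate 1, the highest, the B. chinense call was lost (adjusted p = 0.093), as it was without B. chinense replicate 2 (0.069) or 3 (0.054). Huh7 controls were spread, at 47.7, 65.9 and 76.1 CPM. CEBPB was lower with P. chinensis at 41.8, 38.2 and 40.4 CPM (-0.65, adjusted p = 0.023), a call lost without any 1 of the 3 P. chinensis libraries or of control replicates 2 and 3 (adjusted p = 0.057 to 0.11), and B. chinense gave 46.0, 42.8 and 43.2 (-0.52, adjusted p = 0.24). With P. umbellatus the values were 31.6, 29.5 and 48.7 CPM (-0.78, adjusted p = 0.0082), the third overlapping the lowest control.

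ASNS (ENSG00000070669, chr7:97851677-97872542, minus strand) makes asparagine from aspartate and glutamine. In A549 cells the control libraries held 74.4, 63.6 and 69.6 CPM, P. chinensis 59.7, 59.2 and 58.4, B. chinense 44.2, 52.2 and 48.5, and P. umbellatus 56.9, 53.4 and 49.8. The controls stood above all treated libraries. B. chinense (-0.52, SE 0.08, adjusted p = 0.0003) and P. umbellatus (-0.37, SE 0.08, adjusted p = 0.0033) lowered the gene, and P. chinensis did so at the edge of the threshold (-0.23, SE 0.08, adjusted p = 0.045), a call that was lost under 10 of 14 alternative settings. In Huh7 cells the controls held 164, 188 and 182 CPM, P. chinensis 84.7, 83.8 and 83.1, B. chinense 107, 93.9 and 95.6, and P. umbellatus 112, 145 and 139. The changes were -1.08 (SE 0.10, adjusted p = 1.0e-05), -0.85 (SE 0.10, adjusted p = 0.0013) and -0.43 (SE 0.10, adjusted p = 0.0058), so P. chinensis lowered ASNS 2.12-fold.

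TRIB3 (ENSG00000101255, chr20:362835-397559, plus strand) encodes a pseudokinase induced by ATF4 and CHOP that feeds back on ATF4. In A549 cells it stood at 95.1, 99.9 and 107 CPM in controls, 101, 89.4 and 102 with P. chinensis and 95.7, 93.9 and 101 with P. umbellatus, all overlapping. Only B. chinense, at 79.1, 81.2 and 76.9 CPM, lowered it (-0.35, SE 0.07, adjusted p = 0.0011). In Huh7 cells it fell with every extract, from 234, 268 and 242 CPM to 124, 128 and 129 with P. chinensis (-0.96, SE 0.11, adjusted p = 6.1e-05), to 149, 150 and 170 with B. chinense (-0.66, SE 0.11, adjusted p = 0.010) and to 130, 115 and 160 with P. umbellatus (-0.87, SE 0.11, adjusted p = 0.00047). No treated Huh7 library overlapped the controls. The B. chinense call was lost without B. chinense replicate 1 or 2 or control replicate 2 (adjusted p = 0.060 to 0.064).

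CHAC1 (ENSG00000128965, chr15:40952962-40956512, plus strand) encodes an enzyme that breaks down glutathione and is among the most responsive targets of the ATF4 pathway. A549 controls held little of it, at 2.53, 3.34 and 3.28 CPM (20 to 34 counts). P. chinensis raised it to 6.32, 5.49 and 6.66 CPM (0.96, SE 0.23, adjusted p = 0.0052). B. chinense at 3.75, 3.67 and 2.78 CPM (adjusted p = 0.70) and P. umbellatus at 4.08, 3.22 and 4.59 (adjusted p = 0.30) overlapped the controls. In Huh7 cells CHAC1 did not rise. Controls stood at 19.8, 24.2 and 20.8 CPM, P. chinensis at 16.7, 17.9 and 18.5 (-0.29, adjusted p = 0.48) and B. chinense at 10.9, 12.7 and 19.3 (-0.59, adjusted p = 0.38). P. umbellatus lowered it to 8.55, 4.18 and 11.1 CPM (-1.40, SE 0.27, adjusted p = 0.0032), with the lowest value in replicate 2.

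DDIT4 (ENSG00000168209, chr10:72273919-72276036, plus strand) encodes REDD1, an inhibitor of mTORC1, and was called in none of the 6 comparisons with control. DESeq2 called it in none of the 6 either, and its unadjusted p was below 0.05 in 2 of them, both with P. chinensis. Those 2 passed when only the 6 libraries compared were fitted (adjusted p = 0.021 in A549 and 0.029 in Huh7 cells). A549 control libraries held 103, 130 and 107.8 CPM, P. chinensis 82.9, 95.1 and 92.5, B. chinense 98.8, 103 and 95.0, and P. umbellatus 103, 95.2 and 154. Huh7 controls held 19.3, 19.8 and 18.8 CPM, P. chinensis 21.6, 25.7 and 36.3, B. chinense 17.2, 28.9 and 16.7, and P. umbellatus 20.03, 15.4 and 19.5. The P. chinensis libraries were all below the controls in A549 cells (-0.33, adjusted p = 0.091) and all above them in Huh7 cells (0.52, adjusted p = 0.12).

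Taking the 10 genes as a group, B. chinense in A549 cells gave 2 higher and 4 lower (13.1% and 15.0% of all genes), and P. umbellatus in A549 cells 2 higher and 3 lower (13.4% and 14.8%). In Huh7 cells B. chinense gave 0 higher and 2 lower by edgeR, against 0.519% and 0.757% of all genes. There 8 of the 10 had an unadjusted p below 0.05, DESeq2 called 3 higher, and the fit without Huh7 P. umbellatus replicate 2 called 3 higher and 3 lower. These counts are not to be read against the 2 shares just given. All genes called with B. chinense in Huh7 cells were 177 in the main fit and 51 to 1122 over the alternatives. The share of all genes at an unadjusted p below 0.05 is not given here. P. umbellatus in Huh7 cells gave 2 higher and 5 lower, against 19.3% and 17.8% of all genes, and 3 and 5 without that replicate. The median log2 fold change of the 10 genes lay between -0.03 and 0.08 in 5 of the 6 comparisons, near the median of all genes (-0.01 to 0.03 over the 6), and at -0.31 for P. umbellatus in Huh7 cells. That last median was -0.13 without replicate 2 and turned to 0.18 with the correction for GC content and length described next. The medians near 0 stand for genes that moved in opposite directions, from -1.08 for ASNS to 1.82 for ATF3 with P. chinensis in Huh7 cells.

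The comparison of P. umbellatus with control in Huh7 cells carried a trend with base composition that touches these values. Values of the trend in single libraries are not given here. Over 13875 genes the log2 fold change with P. umbellatus in Huh7 cells had a Spearman correlation of -0.656 with the GC content of the transcripts, with a median of 0.37 in the tenth of genes with the lowest GC and -0.74 in the tenth with the highest. The other 5 comparisons lay between -0.10 and 0.13. The 10 genes are rich in GC (median 58.2% against 49.3% over all genes, 9 of 10 above that median). With the GC content and length of transcripts fitted and removed in every library, CEBPB moved from -0.78 to 0.11 (adjusted p = 0.69), TRIB3 from -0.87 to -0.24 (adjusted p = 0.071) and ATF5 from -0.31 to 0.31 (adjusted p = 0.038). PPP1R15A passed at 0.76 (adjusted p = 0.0013), DDIT3 gave 0.31 (adjusted p = 0.12), and the calls of ATF3 (0.61, adjusted p = 0.013), ATF4 (-0.20, adjusted p = 0.018), CHAC1 (-0.90, adjusted p = 0.009) and ASNS (-0.71) remained. The corrected counts were 3 higher and 3 lower, and the fall of CEBPB with P. umbellatus in Huh7 cells depends on this correction. The TRIB3 fall there became smaller with it, and its call was lost under 1 of 14 alternative settings, which was this correction. In the other Huh7 comparisons with control the correction moved no gene by more than its SE, it brought ATF3, DDIT3 and PPP1R15A past the threshold with B. chinense, and the calls of TRIB3 and ASNS with P. chinensis and B. chinense held.

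**Figure D3:**
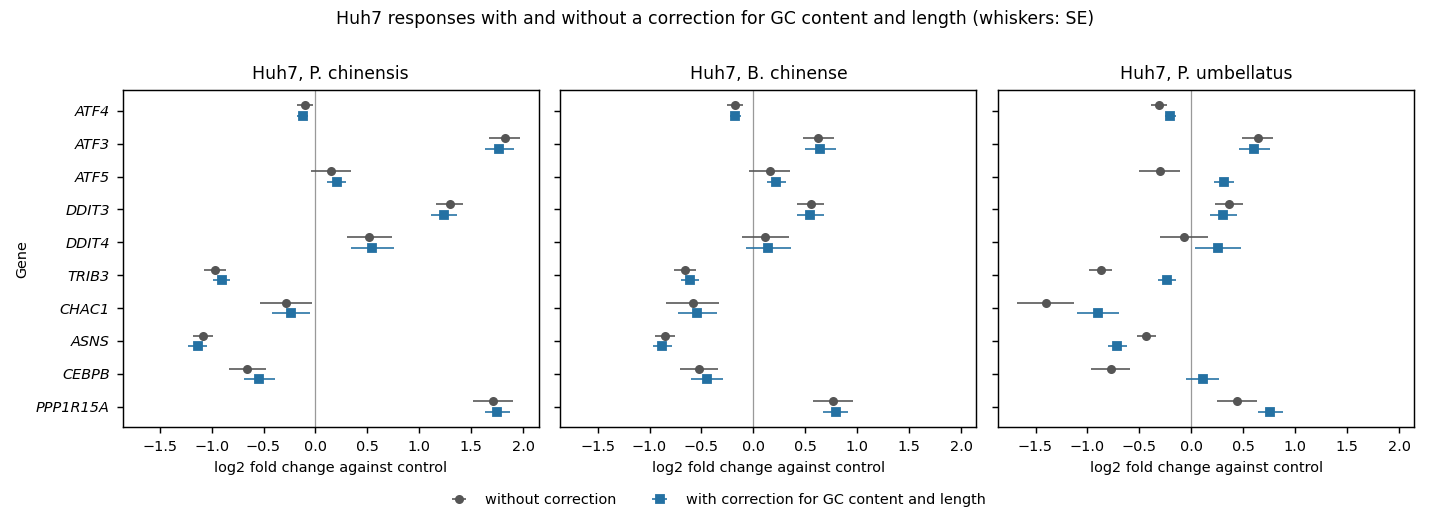
Log2 fold change against control in Huh7 cells for the 10 genes, without (circles) and with (squares) a correction for GC content and length, with SE as whiskers. The pairs lie close together for P. chinensis and B. chinense, while for P. umbellatus CEBPB moves from -0.78 to 0.11 and TRIB3 from -0.87 to -0.24.

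Whether the extracts differed from each other was tested directly. In A549 cells, P. chinensis stood above B. chinense for 3 of the 10 genes (0.447% of all genes were higher), which were DDIT3 (1.32, SE 0.27, adjusted p = 0.028), PPP1R15A (0.76, SE 0.16, adjusted p = 0.030) and TRIB3 (0.30, SE 0.07, adjusted p = 0.037). Against P. umbellatus it was higher for ATF3 (1.33, SE 0.30, adjusted p = 0.029), DDIT3 (1.45, SE 0.27, adjusted p = 0.011) and PPP1R15A (0.78, SE 0.15, adjusted p = 0.016), where 0.814% of all genes were higher. Replicate 3 of P. chinensis held the highest level of ATF3, DDIT3 and PPP1R15A, and without it none of these 6 calls remained (adjusted p = 0.061 for DDIT3 against P. umbellatus, 0.083 or above for the others). Leaving out any 1 of the B. chinense libraries ended all 3 calls against that extract as well (adjusted p = 0.062 to 0.14). B. chinense and P. umbellatus differed in none of the 10 genes in A549 cells by edgeR, with 2 at an unadjusted p below 0.05 and 1 called lower by DESeq2, where 0.0220% of all genes were called higher and 0.0293% lower.

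In Huh7 cells P. chinensis exceeded B. chinense for ATF3 (1.19, SE 0.15, adjusted p = 0.00043), DDIT3 (0.74, SE 0.13, adjusted p = 0.0044) and PPP1R15A (0.94, SE 0.19, adjusted p = 0.011), 3 of 10 genes against 3.89% of all genes. It exceeded P. umbellatus for the same trio by 1.18 (adjusted p = 0.00031), 0.93 (adjusted p = 0.00055) and 1.27 (adjusted p = 0.00078) and for CHAC1 by 1.12 (adjusted p = 0.0085), and was lower for ASNS (-0.65, adjusted p = 0.00069), that is 4 higher and 1 lower where 16.5% and 18.8% of all genes were called. With the correction for GC content and length CHAC1 was at 0.66 (adjusted p = 0.034) and ASNS at -0.42 (adjusted p = 0.0055). B. chinense and P. umbellatus differed for CHAC1 (0.82, adjusted p = 0.048) and ASNS (-0.42, adjusted p = 0.013), against 12.6% and 14.6% of all genes, and neither call held after the correction for GC content and length (0.36, adjusted p = 0.34, and -0.17, adjusted p = 0.30).

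The levels of the 10 genes already differed between control cells of the lines, compared after a common normalization. Huh7 control cells held more ATF4, ATF3, DDIT3, TRIB3, CHAC1 and ASNS, and A549 control cells more DDIT4 and CEBPB (6 and 2 of 10, where 34.9% and 33.8% of 12924 genes were called). CHAC1 showed the widest gap among the 6, at 2.58, 3.40 and 3.34 CPM in A549 and 20.2, 24.5 and 21.1 in Huh7 libraries (-2.75, SE 0.26, adjusted p = 3.5e-09, as A549 minus Huh7). ATF3 differed by -2.69 (SE 0.28), DDIT3 by -1.48 (SE 0.22), ASNS by -1.36 (SE 0.09), TRIB3 by -1.30 (SE 0.09) and ATF4 by -0.94 (SE 0.07), while DDIT4 was 2.55 (SE 0.20) and CEBPB 0.85 (SE 0.15) higher in A549 cells. ATF5 (0.24, adjusted p = 0.18) and PPP1R15A (-0.43, adjusted p = 0.054) did not pass.

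The response to P. chinensis differed between the lines for 5 of the 10 genes, tested as an interaction over 24 libraries (10.3% of all genes were called higher in A549 and 9.30% lower). ATF3 (1.28, SE 0.34, adjusted p = 0.0098), CHAC1 (1.30, SE 0.35, adjusted p = 0.010), TRIB3 (0.97, SE 0.13, adjusted p = 8.8e-06) and ASNS (0.91, SE 0.13, adjusted p = 1.8e-05) were more positive in A549 cells and DDIT4 (-0.79, SE 0.27, adjusted p = 0.043) in Huh7 cells. The DDIT4 call was lost under 11 of 18 alternatives, 9 of them without a single library (adjusted p up to 0.12). The gap of TRIB3 and ASNS comes with a fall in Huh7 cells that was absent or smaller in A549 cells. DDIT3 (0.34, adjusted p = 0.46) and PPP1R15A (-0.50, adjusted p = 0.21) gave no difference that passed. For B. chinense the interaction was called for ATF3 alone among the 10 (1.34, SE 0.36, adjusted p = 0.017, where 5.80% of all genes were called higher in A549), and for P. umbellatus for ATF3 (1.15, SE 0.36, adjusted p = 0.017), ATF5 (0.65, SE 0.22, adjusted p = 0.029), TRIB3 (0.90, SE 0.13, adjusted p = 2.7e-05) and CHAC1 (1.83, SE 0.37, adjusted p = 0.00074), against 19.1% of all genes higher. With the correction for GC content and length the P. umbellatus values of ATF5 and TRIB3 were 0.01 (adjusted p = 0.97) and 0.21 (adjusted p = 0.16), and those of ATF3 (1.24, adjusted p = 0.013) and CHAC1 (1.28, adjusted p = 0.0027) passed. Without A549 control replicate 3, in which ATF3 was lowest, the ATF3 interactions with B. chinense (0.99, adjusted p = 0.070) and P. umbellatus (0.80, adjusted p = 0.072) did not pass. The B. chinense count was 3 higher and 1 lower without Huh7 P. umbellatus replicate 2.

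**Figure D4:**
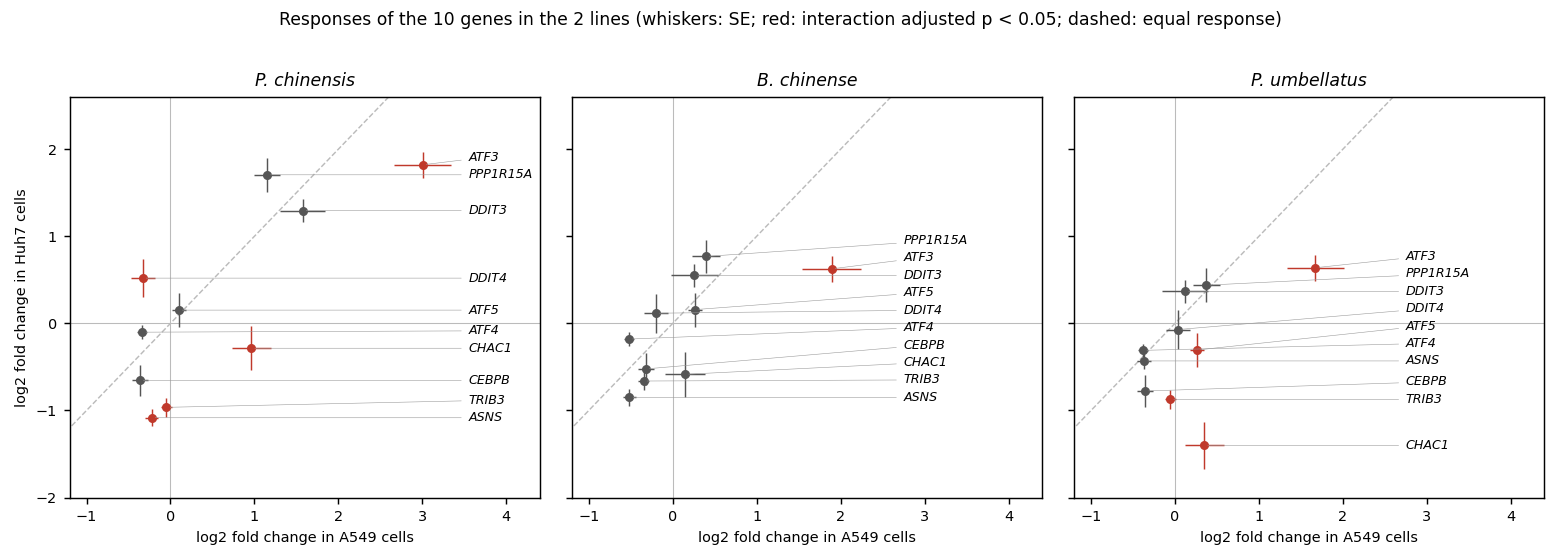
Log2 fold change of each of the 10 genes in Huh7 cells (vertical) against that in A549 cells (horizontal) for each extract, with SE as whiskers, red where the interaction had an adjusted p below 0.05 and the dashed line where both responses are equal. ATF3 lies to the right of the line with all 3 extracts, and TRIB3 and ASNS lie below 0 on the Huh7 axis.

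The wider pathway was described with lists of genes by role. They were drawn up with earlier results of these data known, and they share no gene with the 10 or with each other. Their counts are to be read against the shares of all genes. In A549 cells P. chinensis had 15.8% of all genes called higher and 17.1% lower, B. chinense 13.1% and 15.0%, and P. umbellatus 13.4% and 14.8%. In Huh7 cells the shares were 10.5% and 10.5%, 0.519% and 0.757%, and 19.3% and 17.8% in the same order of extracts. Of 17 genes for the eIF2 kinases, eIF2, eIF2B and their regulators, P. chinensis raised 2 and lowered 5 in A549 cells, among them EIF2AK4 (GCN2) at 0.37 (adjusted p = 0.00036) and EIF2AK1 (HRI) at -0.30 (adjusted p = 9.4e-05). B. chinense raised 1 and lowered 4 there, and P. umbellatus raised 2 and lowered 3. In Huh7 cells P. chinensis lowered 3 and raised 0 (DESeq2 also 3 and 0), and with B. chinense edgeR and DESeq2 called 0 of 17, with 1 at an unadjusted p below 0.05. P. umbellatus raised 7 and lowered 1, EIF2AK3 (PERK) at -0.91 (adjusted p = 0.029), and 1 and 3 after the correction for GC content and length. The median of the list lay between -0.04 and 0.11 over the 6 comparisons.

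Several genes of amino acid supply were lower, as ASNS was. Of 13 amino acid synthesis enzymes, none of which rose in any of the 6 comparisons by edgeR or DESeq2, 7 fell in A549 cells under P. chinensis (17.1% of all genes), 7 under B. chinense (15.0%) and 8 under P. umbellatus (14.8%), and 11, 3 and 8 in Huh7 cells in that order (10.5%, 0.757% and 17.8%). MTHFD2, of mitochondrial folate metabolism, gave -0.58 (adjusted p = 0.00027), -0.85 (adjusted p = 1.5e-05) and -0.53 (adjusted p = 0.00068) in A549 cells. In Huh7 cells with P. chinensis the list had a median of -0.78, with PSAT1 of serine synthesis at -1.12 (adjusted p = 4.3e-06) and GPT2, a transaminase, at -1.10 (adjusted p = 1.3e-05). The B. chinense count in Huh7 cells was 10 without Huh7 P. umbellatus replicate 2, and the P. umbellatus count 11 after the correction for GC content and length. Of 9 amino acid transporters, 5, 5 and 3 fell and 1, 2 and 2 rose in A549 cells, and 5, 4 and 6 fell and 1, 0 and 1 rose in Huh7 cells (with B. chinense in Huh7 cells DESeq2 also called 0 higher, and 5 of the 9 had an unadjusted p below 0.05). SLC6A9, a glycine carrier, fell by 1.17 on the log2 scale (adjusted p = 0.00014) with P. chinensis in Huh7 cells, and SLC7A11, the cystine carrier, fell at -0.88 (adjusted p = 0.00017). SLC38A2, a carrier of neutral amino acids, rose in A549 cells by 0.28, 0.27 and 0.36 (adjusted p = 0.0018, 0.0029 and 0.00025). Of 13 genes of tRNA charging and export, 7, 10 and 5 fell in A549 cells, where 2 rose with each extract, and 8, 4 and 4 fell in Huh7 cells, where 1 rose, with P. umbellatus. There the correction for GC content and length gave 0 higher and 8 lower with edgeR (9 at an unadjusted p below 0.05), and the median went from 0.04 to -0.21. IARS1 gave -1.03 (adjusted p = 0.0018) and AARS1 -0.70 (adjusted p = 5.4e-05) with P. chinensis in Huh7 cells. For the B. chinense libraries of Huh7 cells the count was 11 without P. umbellatus replicate 2.

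**Figure D5:**
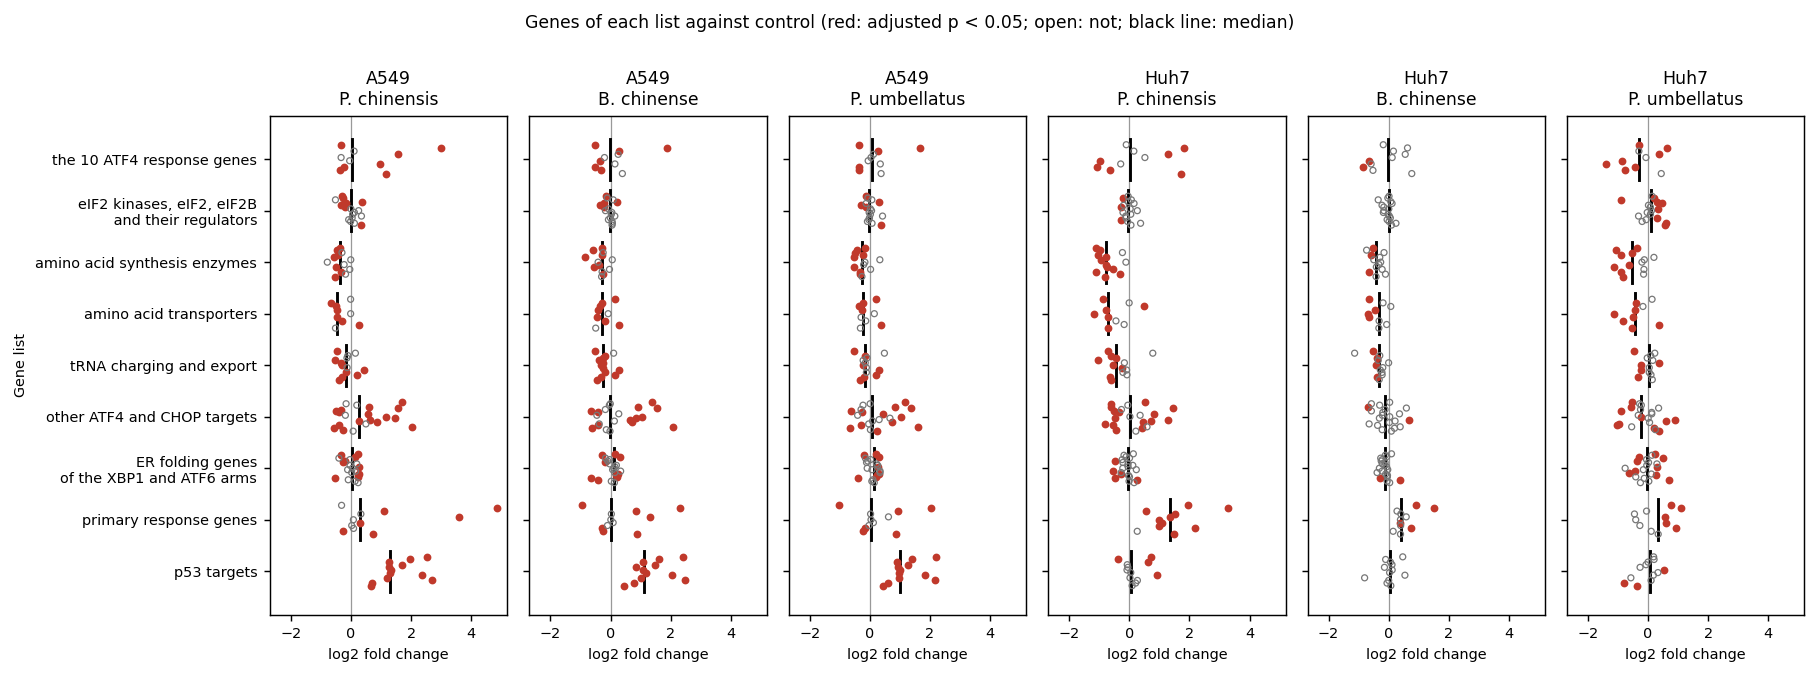
Log2 fold change of the genes of each list (rows) with each extract against control (columns), with red points at adjusted p below 0.05, open points otherwise and a black line at the median. The median of the amino acid synthesis row lies left of 0 in all 6 columns, all p53 points lie right of 0 in the 3 A549 columns, and the primary response row has a median of 1.37 in Huh7 cells with P. chinensis.

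Other known targets of ATF4 and CHOP went both ways. Of 21 tested, 10 rose and 6 fell with P. chinensis in A549 cells, 8 and 4 with each of the other extracts, and in Huh7 cells 7 and 8, 1 and 1, and 4 and 6 (15.8% and 17.1% of all genes with P. chinensis in A549, 19.3% and 17.8% with P. umbellatus in Huh7 cells). For B. chinense in Huh7 cells the counts were 2 and 6 with the correction for GC content and length and 2 and 5 without P. umbellatus replicate 2. The largest rises in A549 cells were BBC3 (PUMA) with P. chinensis at 2.01 (adjusted p = 8.6e-07), B. chinense at 2.09 (adjusted p = 1.1e-06) and P. umbellatus at 1.61 (adjusted p = 1.1e-05), SESN2 with P. chinensis at 1.69 (adjusted p = 3.8e-07), and GDF15 with B. chinense at 1.56 (adjusted p = 3.7e-08). BBC3, SESN2 and GDF15 are also known as targets of p53. All 12 genes of the p53 list rose in A549 cells with every extract, among them CDKN1A (2.54, 2.41 and 2.20) and TP53INP1 (2.69, 2.48 and 2.18), whereas in Huh7 cells 3 rose and 1 fell with P. chinensis, and 1 rose and 2 fell with P. umbellatus. With B. chinense edgeR called 0 of these 12 in Huh7 cells, with 2 at an unadjusted p below 0.05 and 1 by DESeq2. In Huh7 cells GDF15 (1.44, adjusted p = 0.00023) and KLHL24 (1.28, adjusted p = 1.5e-05) led the rises of the ATF4 and CHOP list with P. chinensis. The part of p53 targets in the values of the 10 genes was not tested.

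The primary response genes, which answer within minutes to many stimuli, rose beside ATF3 and PPP1R15A with P. chinensis in Huh7 cells. In Huh7 cells 10 of 11 rose with P. chinensis, with FOSB at 3.27 (adjusted p = 7.0e-08) and DUSP1 at 2.18 (adjusted p = 5.0e-07), 4 with B. chinense and 5 with P. umbellatus, and 0 fell by edgeR. DESeq2 called 1 lower with P. umbellatus. The part of this early response in the values of ATF3 and PPP1R15A was not tested. In A549 cells 5 rose and 1 fell with P. chinensis (FOSB 4.86, adjusted p = 5.3e-07, and EGR1 3.59, adjusted p = 1.4e-06), 4 rose and 3 fell with B. chinense, and 3 rose and 3 fell with P. umbellatus. The list median in A549 cells was 0.03 with B. chinense and 0.04 with P. umbellatus, where ATF3 gave 1.89 and 1.67. The 21 folding genes of the XBP1 and ATF6 arms of the ER stress response were called in both directions. Counts of rises and falls were 6 and 4, 5 and 4, and 6 and 2 in A549 cells, and 1 and 4, 1 and 1, and 5 and 4 in Huh7 cells. The correction for GC content and length gave 1 and 8, 1 and 3, and 1 and 8 in Huh7 cells. XBP1 fell with P. chinensis in both lines, at -0.54 (adjusted p = 0.00014) and -0.48 (adjusted p = 4.6e-05). The medians lay between -0.11 and 0.14 without the correction.

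The genes whose levels followed ATF4 and TRIB3 most closely were listed by Pearson correlation of log2 CPM over the 12 libraries of a line, with a floor of 50 for a gene's mean count. The libraries share their groups and depth, so these values are descriptions. Levels were not corrected for GC content here, and the Huh7 libraries include the P. umbellatus group, whose comparison with control carried the GC trend. For ATF4 in A549 cells the 5 nearest of 10864 genes were RPUSD4 (r = 0.952), TM4SF1, ZNF473, SMYD5 and CCT4 (0.939), and in Huh7 cells FBLIM1 (0.979), MED16, PRMT1, ZFPL1 and ZNF837 (0.959), of 11254 genes. TRIB3 in A549 cells was nearest to ZC2HC1A (0.978), followed at 0.888 to 0.884 by ARID3B, MORF4L2, PDRG1 and LIAS. In Huh7 cells the list for TRIB3 held SHMT2 (0.983), PDIA4 (0.981), FDPS (0.978), H2BC15 (0.978) and H2AC21 (0.967). SHMT2 of serine and glycine metabolism is one of the amino acid synthesis enzymes, and none of the other 9 genes was among the nearest 5 of ATF4 or TRIB3.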

How the data were processed

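Ribosomal RNA was removed from total RNA before paired-end sequencing. The authors made the estimated counts per gene with kallisto against the Ensembl cDNA of GRCh38.p13 and deposited them as whole numbers, without scaling for library size, for genes of mean count above 5. FastQC, kallisto and the build are named in the submitters' processing notes. How transcript estimates were summed and rounded is not given in the sources used here. Of 14585 rows, 14584 were typed as protein-coding by GENCODE (GRCh38), and the other row was left out. Library totals ran from 6803648 to 24345364 counts, and replicates differed by more than sampling noise.

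Rows whose mean over the 12 libraries of a line exceeded 5 (13633 in A549, 13875 in Huh7) were scaled by TMM and fitted with edgeR 4.0.16 (R 4.3.3, quasi-likelihood, prior count 2, 4 groups of 3, no covariate). Interactions and the comparison of controls used all 24 libraries and 12924 genes. Alternatives were DESeq2 1.42.0, RLE scaling, no filter or filterByExpr, the 6 libraries of a comparison alone, a replicate block, a GC and length offset with and without the block, and leaving out single libraries. The fits were tested on simulated data. Same-numbered replicates did not deviate together (correlations from -0.076 to 0.095), so the fit has no block. The 10 genes, the lists and the motifs were chosen with earlier results of these data known. Other genes were named by a rule, which takes per list and comparison at most the 2 largest rises and 2 largest falls past the threshold at a mean of 50 counts or more. Values of genes so named are also given for other comparisons. The 5 nearest genes to ATF4 and to TRIB3 were named too.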

Additional observations from a re-analysis of the deposited data

Results flagged for a closer look

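The response to an extract differed between the lines, by the interaction test over 24 libraries, for 10 pairs of gene and extract. Each value is a log2 fold change in A549 cells less its counterpart in Huh7 cells. ATF3 was flagged with all 3 extracts, at 1.28 for P. chinensis, 1.34 for B. chinense and 1.15 for P. umbellatus. These 3 values share the same control libraries. Without A549 control replicate 3, those for B. chinense (adjusted p = 0.070) and P. umbellatus (adjusted p = 0.072) did not pass. CHAC1 was flagged at 1.30 with P. chinensis, where it rose in A549 cells, and at 1.83 with P. umbellatus, where it fell in Huh7 cells. TRIB3 was flagged at 0.97 with P. chinensis and 0.90 with P. umbellatus. ASNS with P. chinensis gave 0.91, ATF5 with P. umbellatus 0.65, and DDIT4 with P. chinensis -0.79, the one of the 10 that was more positive in Huh7 cells. The DDIT4 call was lost under 11 of 18 alternatives (adjusted p up to 0.12) and stood at -0.84 (adjusted p = 0.020) with the correction for GC content and length. The values of ATF5 and TRIB3 with P. umbellatus became 0.01 and 0.21 after the correction for GC content and length. No group was tested for single outlying samples, since groups of 3 are too small for that test.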

How the results depend on the processing

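Of the results under each alternative, 1645 kept their direction and their side of the threshold or stayed within 1.5 times, 113 lost a call, 27 gained one, 107 counts moved by more and 15 values changed sign. The cause of these changes was not tested. Fits of 6 libraries hold fewer samples and also take their estimate of the spread from those 6 alone. In A549 cells, the GC and length correction left 1 gene higher with B. chinense. P. chinensis against B. chinense gave 1 higher with the replicate block and 0 with 6 libraries, and B. chinense against P. umbellatus gave 1 lower by DESeq2. DDIT4 with P. umbellatus changed sign, to -0.0063 with the correction and -0.0086 with correction and block. In Huh7 cells with P. chinensis, the fit of 6 libraries gave 5 lower and 5860 of all genes called. With B. chinense, the genes higher were 3 by DESeq2, 3 with the correction, 2 with correction and block, and 3 with 6 libraries. All genes called there, 177 in the main result, were 515 by DESeq2, 116 with the block, 689 with the correction, 542 with correction and block, and 1122 with 6 libraries. With P. umbellatus, 1 was higher with RLE scaling, no filter, filterByExpr or the block and 0 with 6 libraries, and 3 were lower with the correction and 2 with 6 libraries. All genes called there were 2734 with the correction, 2504 with correction and block, and 1227 with 6 libraries. ATF5 became 0.31 and 0.30, DDIT4 0.26 and 0.26, and CEBPB 0.11 and 0.12, without and with the block beside the correction. P. chinensis against B. chinense gave 1 lower with the correction, 1 with correction and block, and 2 with 6 libraries. P. chinensis against P. umbellatus gave 3 lower with the correction, alone or with the block. B. chinense against P. umbellatus gave 0 higher with the correction, with correction and block, and with 6 libraries, and 0 lower with 6 libraries. In the interaction for P. chinensis, 0 were lower without a filter, 0 with the block and 2 with the correction. For B. chinense, DESeq2 gave 3 higher and 1 lower, and the correction 2 higher and 1 lower.

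Leaving out single libraries gave ranges of 1 to 2 genes higher for B. chinense and 1 to 2 for P. umbellatus in A549 cells, 0 to 4 for P. chinensis over B. chinense and 0 to 3 for P. chinensis over P. umbellatus. In Huh7 cells all genes called ranged from 1839 to 4845 with P. chinensis, from 51 to 911 with B. chinense and from 3249 to 6362 with P. umbellatus. The 10 genes gave 0 to 3 higher and 1 to 3 lower with B. chinense, 1 to 3 higher with P. umbellatus, 0 to 1 lower for P. chinensis against B. chinense, and 0 to 5 higher and 0 to 1 lower for B. chinense against P. umbellatus. The interactions gave 0 to 3 lower for P. chinensis, and 0 to 3 higher and 0 to 1 lower for B. chinense. Values that changed sign ranged from -0.085 to 0.016 (TRIB3 with P. chinensis, A549), -0.028 to 0.31 (DDIT3 with P. umbellatus, A549), -0.19 to 0.16 (DDIT4 with P. umbellatus, A549), -0.19 to 0.25 (DDIT4 with B. chinense, Huh7) and -0.14 to 0.034 (DDIT4 with P. umbellatus, Huh7).

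The replicate numbers did not pair the samples. Beside the counts above, the replicate block alone ended the calls of ASNS with P. chinensis in A549 cells (adjusted p = 0.066), DDIT3 (0.061) and TRIB3 (0.062) for P. chinensis over B. chinense, ATF3 (0.056) for P. chinensis over P. umbellatus, DDIT3 with P. umbellatus in Huh7 cells (0.064), and the DDIT4 interaction (0.060), and no other call of the 10 genes. The interactions were corrected, and Huh7 P. umbellatus replicate 2 was left out of comparisons it is not part of, after the data were seen. With 3 libraries a group and 6 to 17 ATF3 counts in A549 controls, folds of ATF3 and CHAC1 are the least precise.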
